A study of Mus musculus with 36 samples.

Results

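The 10 genes described here, Fabp4, Cldn5, Aqp1, Cd34, Plvap, Vwf, Eng, Tmem100, Pecam1 and Cdh5, are expressed by the cells that line the heart chambers (endocardium) and the coronary vessels (coronary endothelium). They were chosen by name, among 18193 genes with a probe set of their own, and every probe set annotated to one of these symbols alone was taken. This gave 16 probe sets: 4 for Fabp4, 2 each for Eng, Tmem100 and Cdh5, and 1 for each other gene. All 16 passed the filter on low values described below. The probe set of highest mean stands for its gene. Expression had been measured on 36 Affymetrix mouse arrays from total RNA of normal C57BL/6 embryos obtained by timed mating, in 12 groups of 3 arrays. Ventricles and atria were dissected apart at embryonic days E12.5, E13.5 and E14.5, and later on days E16.5 and E18.5. For E10.5 and E11.5 the tissue was the middle of the embryo, heart included, with the head and tail ends taken off, although the source field names the whole heart. Titles and descriptions give different days for the E16.5 arrays, and the title was followed. No genotype or treatment differed between the groups, and nothing in the labels tells if the 3 arrays of a group came from separate litters or animals, so the p-values measure only the spread between these samples, which may be technical.

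The endocardium forms early as the inner lining of the heart tube, and endocardial cells of the cushions later give rise to valve tissue. Coronary vessels appear afterwards in the growing wall, from sinus venosus, endocardial and other sources, and their capillaries supply the myocardium with fatty acids. Pecam1 and Cdh5 (VE-cadherin) are adhesion molecules of nearly all endothelium, while genes such as Plvap, Vwf, Fabp4 and Cldn5 differ between vessel beds.

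Promoter windows could be matched for 4 of the 10 genes (Cldn5, Aqp1, Cd34 and Eng) in RefSeq, build GRCm38.p6. Each window runs from 250 bases before the start of the gene to 50 bases after it, and the windows are printed because the ventricle-high genes Cldn5 and Cd34 can be read beside Eng, which turned atrium-high. Capitals mark AGGAAG, a core bound by factors of the ETS family, several of which act in endothelium, or its reverse complement CTTCCT, and in Aqp1 also TTCCCA, the reverse complement of TGGGAA, a core bound by the Notch partner RBPJ. All 4 windows lie on the plus strand.
Cldn5, chr16:18776597-18776896: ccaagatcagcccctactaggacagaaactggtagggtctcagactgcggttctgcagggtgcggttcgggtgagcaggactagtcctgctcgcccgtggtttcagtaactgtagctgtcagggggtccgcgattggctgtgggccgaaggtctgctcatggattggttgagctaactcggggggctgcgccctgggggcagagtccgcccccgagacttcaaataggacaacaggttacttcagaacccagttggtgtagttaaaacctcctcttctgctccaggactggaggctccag
Cd34, chr1:194938571-194938870: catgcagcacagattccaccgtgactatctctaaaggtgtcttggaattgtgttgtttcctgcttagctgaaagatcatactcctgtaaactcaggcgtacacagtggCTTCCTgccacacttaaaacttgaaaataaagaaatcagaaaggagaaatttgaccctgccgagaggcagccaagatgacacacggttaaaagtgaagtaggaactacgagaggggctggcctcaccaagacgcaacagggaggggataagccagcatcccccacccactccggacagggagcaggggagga
Eng, chr2:32646345-32646644: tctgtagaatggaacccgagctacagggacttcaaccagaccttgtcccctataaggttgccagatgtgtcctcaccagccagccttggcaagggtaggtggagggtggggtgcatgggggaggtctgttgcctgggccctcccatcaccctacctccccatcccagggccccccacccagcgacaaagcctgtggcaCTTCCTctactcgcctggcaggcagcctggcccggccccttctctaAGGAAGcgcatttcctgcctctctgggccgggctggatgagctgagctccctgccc
Aqp1, chr6:55336049-55336348: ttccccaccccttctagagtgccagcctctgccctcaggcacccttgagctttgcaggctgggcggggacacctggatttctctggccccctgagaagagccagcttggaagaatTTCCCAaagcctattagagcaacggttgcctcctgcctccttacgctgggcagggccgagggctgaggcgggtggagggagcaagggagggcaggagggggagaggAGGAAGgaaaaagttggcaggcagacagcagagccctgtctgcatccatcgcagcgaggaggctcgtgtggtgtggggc

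AGGAAG on either strand stood in 3 of these 4 windows: at -142 in Cd34, at -52 and -6 in Eng and at -29 in Aqp1, counted from the start of the gene. Among all 32851 RefSeq windows of the same length, 35.4% held it. TGGGAA stood in the Aqp1 window alone, at -135, and in 25.6% of all windows. The core AGATAA, bound by zinc finger factors that act in blood and endothelium, was in none of the 4 windows and in 11.2% of all. The classical core promoter motif TATAAA was likewise in none of them and in 13.6% of all windows. The motifs searched did not overlap each other. The Cldn5 window held none of the 4 motifs. The GC content was 58.3% for Cldn5, 62.7% for Aqp1 and 63.3% for Eng, and lowest for Cd34. A match is a run of letters, not a shown binding site.

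The values are intensities on a linear scale, scaled so that each array has the same trimmed mean, 500. Correlations between arrays of a group ran from 0.941 to 0.984. Of a list of 10 endothelial markers, 2 of which (Pecam1 and Cdh5) are also among the genes described, all 10 were above the median of all values (171.8) on 36 of 36 arrays, so the labelled tissues contained endothelium throughout. Some arrays stood apart on markers of other tissues, given as the mean log2 deviation of a list. Lung genes were high on array 3 of the E13.5 atria (2.18), of the E16.5 atria (2.48) and of the E18.5 atria (2.85), while every other chamber array was at most 0.812. Liver genes were high on E12.5 atrium array 2 (3.58) and E16.5 ventricle array 2 (3.01). Red-cell genes were low on E12.5 ventricle array 2 (-0.77, against 1.14 and 1.49 on arrays 1 and 3) and high on E14.5 atrium array 3 (1.3, against -0.525 and 0.434). E12.5 atrium array 1 had the lowest score for the endothelial list, -0.632. Values without these arrays are given where leaving them out ended a call of the 10 genes, and for some other results.

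Between the chambers the genes split. Averaged over the 5 ages, Fabp4, Cldn5, Cd34 and Cdh5 were lower in the atria than in the ventricles, Vwf, Plvap and Tmem100 were higher in the atria, and Aqp1, Eng and Pecam1 did not pass the test. Of the 10 genes, 3 were thus called higher in atria and 4 lower. Of all 27256 probe sets tested, 42.4% were called in this comparison, so a call by itself is common here, and it is the size and direction of each gene that the following values show. The median log2 difference was -0.01 over the 10 genes and also -0.01 over all probe sets. A gene was called at an adjusted p below 0.05 in limma, after adding 17 to each intensity and taking log2, and every log2 difference below is atrium minus ventricle on that scale, beside its standard error (SE). In tissue RNA, fewer endothelial cells of a type and less RNA per cell cannot be told apart.

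**Figure D1:**
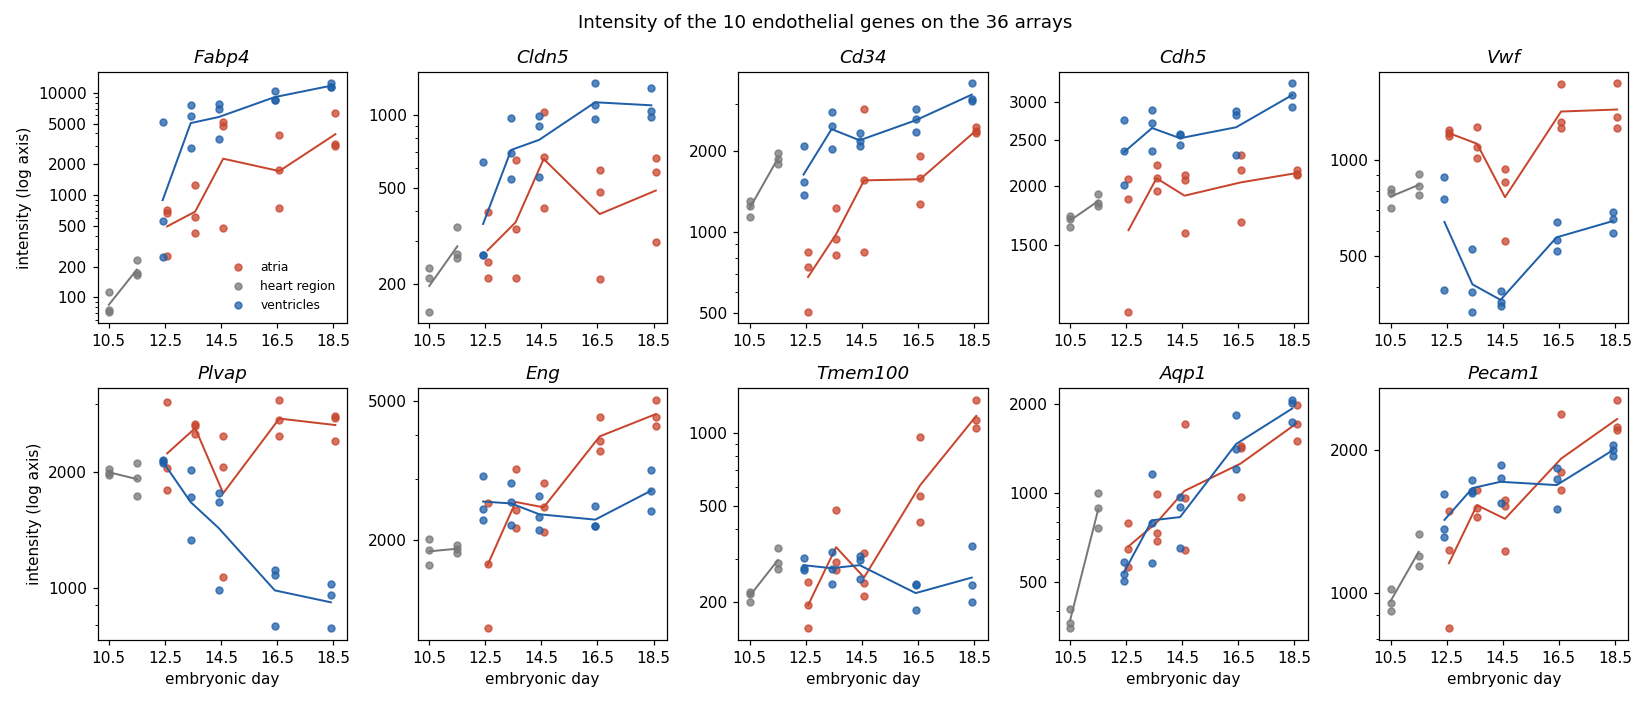
Intensity (log axis) of each of the 10 genes on the 36 arrays against embryonic day. Points are single arrays, and lines join the geometric means of the groups. Atria are in red, ventricles in blue and the E10.5 and E11.5 heart region in grey. The ventricular line lies above the atrial one at every age for Fabp4, Cldn5, Cd34 and Cdh5 and below it for Vwf. With 1 array left out, the order could turn for Fabp4 at E12.5 and for Cldn5 at E12.5 and E14.5. For Plvap, Eng and Tmem100 the atrial line lies furthest above the ventricular one at E16.5 and E18.5. The Plvap arrays of the chambers were also apart at E13.5.

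Fabp4, which encodes a fatty acid binding protein of capillary endothelium and of fat cells, had the widest range of the 10. In the ventricles its intensity was 245, 5156 and 562 on the 3 arrays of E12.5, 7517, 2894 and 5941 at E13.5, and 7795, 3565 and 7012 at E14.5. It was 8442, 8552 and 10378 at E16.5 and 11395, 12387 and 11392 at E18.5. The E12.5 ventricle group thus held 1 array, array 2, near the level of later ages and 2 far below it. In the atria the values were 668, 251.5 and 717 at E12.5, 427, 1261 and 609 at E13.5 and 5164, 4772.5 and 474 at E14.5. At E16.5 they were 1739, 3909.7 and 744, and at E18.5 6371, 3171 and 3016. The chambers overlapped at E12.5 and E14.5 and were apart on the 3 other days. At E12.5 the difference was -0.85 ± 0.76 (SE, adjusted p = 0.54). It ranged from -1.755 to 0.396 when 1 array was left out. The mean difference over the ages was -1.80 ± 0.34 (SE, adjusted p = 7.9e-05), and the difference was -2.84 ± 0.76 (SE, adjusted p = 0.013) at E13.5 and -2.39 ± 0.76 (SE, adjusted p = 0.029) at E16.5. At E18.5 it was -1.57 ± 0.76 (SE, adjusted p = 0.15), with no overlap between the groups; the SE pools the spread of all 12 groups. The E16.5 call was lost without any of 5 of its 6 arrays (adjusted p from 0.06 to 0.15), and the E13.5 call without ventricle array 1 (0.065) or atrium array 1 (0.062). Without atrium array 2 the E16.5 difference was -2.98, and without atrium array 3 it was -1.79, as it was without all 3 lung-high arrays (adjusted p = 0.17). Without the 2 liver-high arrays it was -2.43 (adjusted p = 0.059).

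Fabp4 also marks fat cells, and 7 of their genes were measured. Lep, Cidec and Ucp1 were above the median of all values on 0 of 36 arrays, and Adipoq on 1, E16.5 atrium array 2, at 585. On the E18.5 ventricle arrays, where Fabp4 was highest, Adipoq was between 19.6 and 27.4. The other 3 were brighter. Retn was above the median on 32 of 36 arrays, with a highest value of 632.5, and Cebpa, which other tissues also carry, on 13, with a highest value of 627. Cidea, another gene of fat and of some other tissues, was above the median on 13 arrays, stood at 491, 449 and 387 in the E18.5 ventricles, and was lower in atria, at -1.17 ± 0.31 (SE, adjusted p = 0.0025). The summed level of the 7 fat-cell genes measured lay between 467 and 1105 in the ventricle groups and between 411 and 1483 in the atrial groups. Their part in the Fabp4 values was not tested.

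Cldn5, a tight junction claudin of endothelium, followed a similar order at a lower amplitude. In the ventricles it rose from 264, 637.5 and 263 at E12.5 to 1040.3, 978 and 1293 at E18.5, with 975, 542.5 and 694 at E13.5, 989, 553 and 896 at E14.5 and 963, 1103 and 1352 at E16.5. In the atria it was 212, 396 and 247 at E12.5, 335.5, 211.5 and 653 at E13.5 and 1027, 669 and 412 at E14.5. Later atria gave 208, 589.8 and 477 at E16.5 and 665, 298 and 579 at E18.5. The chambers overlapped up to E14.5 and were apart at E16.5 and E18.5. The difference was -0.35 ± 0.39 (SE, adjusted p = 0.64) at E12.5 and -0.26 ± 0.39 (SE, adjusted p = 0.74) at E14.5. With 1 array left out these values reached 0.061 and 0.070. The mean difference was -0.84 ± 0.17 (SE, adjusted p = 0.00023), with -1.49 ± 0.39 (SE, adjusted p = 0.0073) at E16.5 and -1.14 ± 0.39 (SE, adjusted p = 0.036) at E18.5. The E16.5 call was lost without atrium array 1 (-1.06, adjusted p = 0.078), and the E18.5 call without any of 5 of its 6 arrays, most of all atrium array 2 (-0.80, adjusted p = 0.22).

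Cd34, a sialomucin of capillary endothelium that fibroblasts and blood progenitors also carry, was lower in atria most clearly early. The ventricles had 1367, 2086 and 1531 at E12.5 and 2781, 2029 and 2481 at E13.5, against 504.5, 841 and 742 and 820.2, 939 and 1223 in the atria. There was no overlap at either age, and the differences were -1.24 ± 0.24 (SE, adjusted p = 0.0015) and -1.28 ± 0.24 (SE, adjusted p = 0.00063). At E14.5 the ventricles gave 2171, 2085 and 2322 and the atria 2869, 1555 and 843, which overlapped. At E16.5 they gave 2347, 2619.7 and 2857 against 1909.5, 1591 and 1274, and at E18.5 3056, 3567 and 3114 against 2449.6, 2339 and 2368, again apart. The difference was -0.72 ± 0.24 (SE, adjusted p = 0.04) at E16.5, a call lost without any of 5 of the 6 arrays (adjusted p up to 0.16), and -0.44 ± 0.24 (SE, adjusted p = 0.22) at E18.5. The E16.5 difference was -0.57 (adjusted p = 0.17) without the 3 lung-high arrays and -0.72 (adjusted p = 0.086) without the 2 liver-high arrays. Over the 5 ages it was -0.83 ± 0.11 (SE, adjusted p = 3.2e-07). Of 8 fibroblast markers, 7 were higher in atria over the ages, with a median of 0.51, beside 20.9% of all probe sets called higher. Their summed level was 25840 to 56930 in the atrial groups and 19690 to 39580 in the ventricular groups. Their part in the Cd34 values was not tested.

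Cdh5, the adherens junction cadherin of endothelium, was lower in atria by a small and even amount, -0.44 ± 0.07 (SE, adjusted p = 5e-06) over the ages. It had 2364, 2745 and 2010.2 in E12.5 ventricles and 1087, 1874 and 2064 in E12.5 atria, and 3284, 3108.5 and 2925 against 2116, 2158 and 2109.9 at E18.5. The chambers overlapped at E12.5 and did not at the 4 later ages. The called single ages were E12.5, -0.54 ± 0.15 (SE, adjusted p = 0.023), and E18.5, -0.54 ± 0.15 (SE, adjusted p = 0.012); the E12.5 value was -0.26 without atrium array 1 (adjusted p = 0.3), and its call was also lost without ventricle array 1 (0.061) or array 2 (0.12). Pecam1, the other general endothelial adhesion molecule, differed over the ages by a log2 value of -0.05 ± 0.06 (SE, adjusted p = 0.52), and no single age passed. Its lowest array was E12.5 atrium array 1 at 842 among the chamber groups, and its highest E18.5 atrium array 3 at 2550.1. Aqp1, a water channel of endothelium and red cells, differed by 0.03 ± 0.11 (SE, adjusted p = 0.83), with the chambers overlapping at all 5 ages.

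Vwf, which encodes the von Willebrand factor that endothelium stores for clotting, was the one gene of the 10 whose chambers stayed apart at each of the 5 ages. Ventricular intensities were 756, 393 and 884 at E12.5, 526, 334 and 385.5 at E13.5 and 358, 348 and 389 at E14.5. They were 519, 564 and 642 at E16.5 and 591, 689 and 656.5 at E18.5. The ventricular group means were lowest at E13.5 and E14.5. Atrial intensities were 1217, 1195 and 1242 at E12.5, 1103, 1276 and 1020.2 at E13.5 and 557, 857 and 941 at E14.5. They were 1732, 1262 and 1319.9 at E16.5 and 1367, 1746 and 1264 at E18.5. Every atrial array of an age was above every ventricular array of that age. It was not counted how many of all probe sets stay apart in this way. The mean difference was 1.16 ± 0.09 (SE, adjusted p = 1.6e-11), and single ages ran from 0.91 at E12.5 to 1.43 at E13.5, each called. Leaving out E12.5 ventricle array 2, the lowest of that group, gave 0.57 there (adjusted p = 0.053). Platelets also carry Vwf. Their gene Pf4 was higher in atria by 0.81 ± 0.12 (SE, adjusted p = 1.6e-06), while Itga2b, at 0.18 ± 0.10 (SE, adjusted p = 0.15), and Gp1bb, at -0.19 ± 0.09 (SE, adjusted p = 0.078), were not called, and Gp9 and Gp6 did not pass the filter. The summed level of the 5 platelet genes was 1771 to 6463 in the atrial groups and 1414 to 3049 in the ventricular groups, and its part in the Vwf difference was not tested.

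Plvap, which forms the diaphragms of endothelial fenestrae and caveolae, was level between the chambers at E12.5, with 2103, 2129.6 and 2142 in ventricles and 1796, 2041 and 3023 in atria. At E13.5 the ventricles had 1330.3, 2023 and 1719.5 and the atria 2620.1, 2505 and 2653, without overlap. At E14.5 they had 985, 1765 and 1673 and 1069, 2049.7 and 2479, with overlap. At E16.5 the ventricles were down to 793.5, 1112 and 1079.9 and the atria at 3070.5, 2472 and 2724.5. At E18.5 the values were 960.1, 1023 and 784 and 2406.5, 2753 and 2780.2. Late ventricles thus held the lowest Plvap of the series, and the atrial change, given below, did not pass the test. The difference was 0.07 ± 0.22 (SE, adjusted p = 0.89) at E12.5, 0.63 ± 0.22 (SE, adjusted p = 0.057) at E13.5, 1.46 ± 0.22 (SE, adjusted p = 2.1e-05) at E16.5 and 1.51 ± 0.22 (SE, adjusted p = 9.8e-06) at E18.5, with a mean of 0.79 ± 0.10 (SE, adjusted p = 1.2e-07).

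Eng (endoglin) is the co-receptor, and Tmem100 a downstream target, of BMP9 and BMP10 signalling through the endothelial receptor ALK1. Both parted between the chambers after E14.5. Eng was 2194, 2195.5 and 2499.5 in ventricles and 4489.7, 3836 and 3601 in atria at E16.5, and 3184, 2772 and 2419 against 4505, 4239.9 and 5032 at E18.5, apart at both ages. The differences were 0.78 ± 0.18 (SE, adjusted p = 0.0031) and 0.72 ± 0.18 (SE, adjusted p = 0.0052). At E13.5 and E14.5 the chambers overlapped, with differences of 0.01 ± 0.18 (SE, adjusted p = 0.97) and 0.06 ± 0.18 (SE, adjusted p = 0.87). At E12.5 Eng was lower in atria, 1122, 1716 and 2558 against 2456, 3051 and 2293, a difference of -0.60 ± 0.18 (SE, adjusted p = 0.037). That call was lost without atrium array 1 (-0.30, adjusted p = 0.37), atrium array 2 (0.071), ventricle array 1 (0.065) or ventricle array 2 (0.16), and the other Eng probe set gave -0.15 ± 0.13 (SE, adjusted p = 0.5). The E12.5 call was also lost without the 2 liver-high arrays (-0.60, adjusted p = 0.079). Over the 5 ages Eng was 0.20 ± 0.08 (SE, adjusted p = 0.053), and its other probe set 0.29 ± 0.06 (SE, adjusted p = 0.00014).

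Tmem100 stayed between 184 and 339.8 in the ventricles, with 277, 269.9 and 303.5 at E12.5, 274, 236 and 321 at E13.5 and 248, 297 and 308 at E14.5. It was 235, 235 and 184 at E16.5 and 235, 199 and 339.8 at E18.5. In the atria it began at 155, 193 and 240.2 at E12.5, below every ventricular array of that age, and was 292, 481 and 270.3 at E13.5 and 210.3, 317 and 239 at E14.5. It then stood at 959.5, 548 and 427 at E16.5 and 1046, 1137 and 1374 at E18.5. The groups did not overlap at E16.5 or E18.5. The difference was -0.51 ± 0.23 (SE, adjusted p = 0.15) at E12.5, 1.42 ± 0.23 (SE, adjusted p = 4.4e-05) at E16.5 and 2.15 ± 0.23 (SE, adjusted p = 6.7e-08) at E18.5, the last being 4.45-fold. Tmem100 is also abundant in lung, and 3 atrial arrays carried lung genes. Without them the difference was 1.67 at E16.5 and 2.04 at E18.5 (adjusted p = 2.6e-05 and 1.9e-06). The lung score of E18.5 atrium arrays 1 and 2, where Tmem100 was 1046 and 1137, was -0.0615 and -0.331. The part of lung tissue in the Tmem100 values was not tested.

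By age, the number of the 10 genes called moved with these patterns. At E12.5, 1 was higher in atria (Vwf) and 3 lower (Cd34, Eng, Cdh5), beside 9.67% of all probe sets called. At E13.5, 1 was higher (Vwf) and 2 lower (Fabp4, Cd34), beside 12.1%. At E14.5 the single call was Vwf, beside 6.18%. At E16.5, 4 were higher (Vwf, Plvap, Eng, Tmem100) and 3 lower (Fabp4, Cldn5, Cd34), beside 16.9%. At E18.5, the same 4 were higher and 2 were lower (Cldn5, Cdh5), beside 19.5%. For Cd34, Plvap and Aqp1 the E14.5 atria were the group with the widest spread on the log2 scale: array 1 had Cd34 at 2869 and Plvap at 1069, array 3 had them at 843 and 2479. Leaving out each array changed the E12.5 count to between 1 and 5 and the E14.5 count to 2 without atrium array 1.

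**Figure D2:**
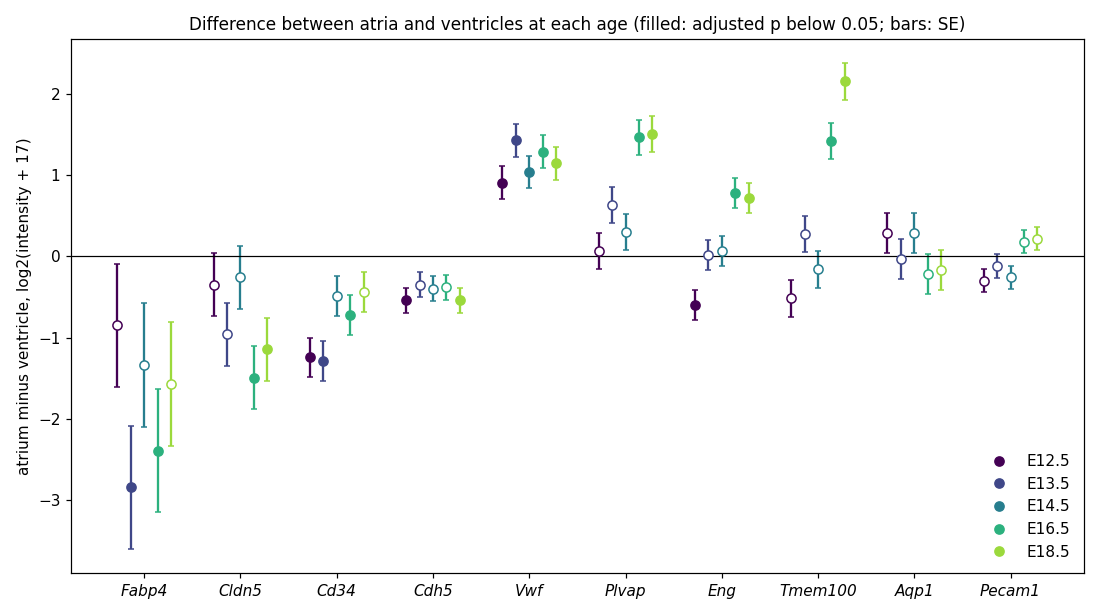
Atrium minus ventricle difference in log2(intensity + 17) for each gene, 1 point per age from E12.5 (dark) to E18.5 (light); bars are the SE of the fit, and filled points have an adjusted p below 0.05. All 5 points of Vwf are filled and above 0, and the points of Plvap, Eng and Tmem100 lie highest at E16.5 and E18.5.

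Since Pecam1 and Cdh5 mark endothelium of any kind, each gene was also taken as a log2 ratio to their mean on the same array, a choice made after the data were seen and given as a description. Relative to that reference, the atrium minus ventricle difference was -1.55 for Fabp4 and -0.59 for both Cldn5 and Cd34. It was 1.41 for Vwf, 1.04 for Plvap, 0.88 for Tmem100, 0.45 for Eng and 0.28 for Aqp1. The SD of the ratio between arrays of a group was 1.09 for Fabp4, 0.56 for Cldn5, 0.29 for Cd34 and Tmem100, 0.35 for Plvap, 0.37 for Vwf, 0.16 for Eng and 0.33 for Aqp1. Fabp4, Cd34, Plvap and Vwf kept their sign at 5 of 5 ages, Eng and Tmem100 at 4, Cldn5 and Aqp1 at 3. With Cdh5 alone as the reference Cd34 kept its sign at 4 ages (0.10 at E18.5), with a difference of -0.39. With Pecam1 alone as the reference the Aqp1 value was 0.09 and the Eng value 0.25, and with Cdh5 alone 0.47 and 0.64. The other values with Pecam1 alone were -1.74 for Fabp4, -0.78 for Cldn5 and Cd34, 1.22 for Vwf, 0.85 for Plvap and 0.69 for Tmem100. With Cdh5 alone they were -1.36 for Fabp4, -0.40 for Cldn5, 1.6 for Vwf, 1.24 for Plvap and 1.08 for Tmem100. Cdh5 itself was lower in atria (-0.44) and Pecam1 differed by -0.05, so ratios to Cdh5 lie higher in atria.

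From E12.5 to E18.5, 5 of the 10 genes rose in the ventricles and 1 fell. Fabp4 rose there by 3.67 ± 0.76 (SE, adjusted p = 0.00052), a 12.7-fold change, Aqp1 by 1.81 ± 0.25 (SE, adjusted p = 3.1e-06), Cldn5 by 1.58 ± 0.39 (SE, adjusted p = 0.0026), Cd34 by 0.98 ± 0.24 (SE, adjusted p = 0.0031) and Pecam1 by 0.48 ± 0.14 (SE, adjusted p = 0.011). Plvap fell by 1.20 ± 0.22 (SE, adjusted p = 0.00013). The count of 5 up and 1 down stands beside 28.7% of all probe sets called, and the median of the 10 genes was 0.44 against -0.05 over all probe sets. Cdh5 missed the threshold at 0.40 ± 0.15 (SE, adjusted p = 0.052), and Vwf (0.01 ± 0.20 (SE, adjusted p = 0.99)) and Eng (0.10 ± 0.18 (SE, adjusted p = 0.72)) had values near 0. The size of the Fabp4 change rested on the E12.5 ventricles: it was 4.91 without array 2 and 2.76 without array 1, both called. The Pecam1 call was lost without E12.5 ventricle array 3 (0.42, adjusted p = 0.057).

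In the atria 6 of the 10 rose and 0 fell by limma (7 and 0 at an unadjusted p below 0.05), beside 24.3% of all probe sets, with a median of 1.18 against 0.01. Fabp4 rose by 2.95 ± 0.76 (SE, adjusted p = 0.0049), Tmem100 by 2.51 ± 0.23 (SE, adjusted p = 2e-08), Cd34 by 1.78 ± 0.24 (SE, adjusted p = 1e-05), Eng by 1.42 ± 0.18 (SE, adjusted p = 5.1e-06), Aqp1 by 1.36 ± 0.25 (SE, adjusted p = 0.00019) and Pecam1 by 1.0 ± 0.14 (SE, adjusted p = 1.6e-05). For all 6 the E18.5 arrays lay above every E12.5 array. The share of all probe sets that separate so was not counted. Cldn5 (0.79 ± 0.39 (SE, adjusted p = 0.14)), Cdh5 (0.39 ± 0.15 (SE, adjusted p = 0.059)), Plvap (0.24 ± 0.22 (SE, adjusted p = 0.46)) and Vwf (0.24 ± 0.20 (SE, adjusted p = 0.41)) did not pass. E12.5 atrium array 1, was the low array for Eng, Pecam1, Cdh5, Cd34 and Tmem100; it also had the lowest endothelial score, which Pecam1 and Cdh5 enter. Without it the rises were 1.12 (adjusted p = 8.2e-05) for Eng, 0.77 (adjusted p = 0.00026) for Pecam1, 1.57 (adjusted p = 0.00024) for Cd34 and 2.36 (adjusted p = 9e-07) for Tmem100. Red-cell genes fell over the same interval in both chambers, 4 of 4 in each, with medians of -3.3 in ventricles and -4.1 in atria. Their part in these rises was not tested.

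Aqp1, the member that red cells also carry, is described best by its order of levels. It was 406, 363 and 348 in the E10.5 heart region and 893, 1003 and 764 at E11.5. In ventricles it was 532, 586.5 and 503 at E12.5, 974, 654 and 896 at E14.5, 1210.3, 1415 and 1845 at E16.5 and 2013, 2071 and 1736.5 at E18.5. In atria it was 562, 791 and 647 at E12.5, 1714, 962 and 639.5 at E14.5, 1420.2, 1445.5 and 973 at E16.5 and 1714, 1499.5 and 1994.5 at E18.5. The levels at E18.5 lay above those at E12.5 without overlap in each chamber. Within a chamber, neighbouring ages overlapped apart from E14.5 and E16.5 ventricles and E16.5 and E18.5 atria. The part of red cells in the Aqp1 values was not tested.

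**Figure D3:**
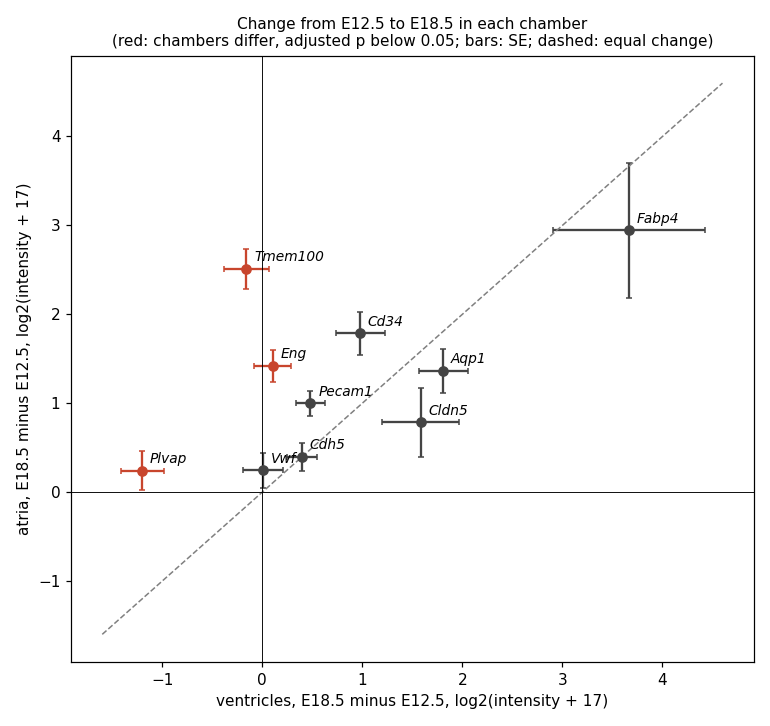
Change from E12.5 to E18.5 of each gene in ventricles (x axis) and atria (y axis), in log2(intensity + 17), with SE bars; the dashed line marks an equal change. Tmem100, Eng and Plvap, in red, lie above the line and are those whose change differed between the chambers at an adjusted p below 0.05.

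Between E12.5 and E18.5 the chambers changed by different amounts for 3 of the 10 genes, beside 3.78% of all probe sets. For Tmem100 the atrial change exceeded the ventricular one by 2.67 ± 0.32 (SE, adjusted p = 7.4e-06), for Plvap by 1.44 ± 0.31 (SE, adjusted p = 0.0077) and for Eng by 1.31 ± 0.26 (SE, adjusted p = 0.0035). Tmem100 and Eng rose in the atria with no called change in the ventricles, and Plvap fell in the ventricles with no called change in the atria. The second probe set of Eng (0.79, adjusted p = 0.012) was called as well, as was that of Tmem100 (1.89, adjusted p = 0.002), which was above the filter value mainly in atria. Without the 3 lung-high arrays the values were 2.56 for Tmem100, 1.40 for Plvap and 1.25 for Eng (adjusted p = 3.2e-05, 0.034 and 0.021). Without E12.5 atrium array 1 they were 2.52 (adjusted p = 7.2e-05), 1.29 (adjusted p = 0.036) and 1.02 (adjusted p = 0.015). Plvap had an adjusted p of 0.051 when arrays were centred on their median, and Eng 0.057 when the fit used only the 12 arrays compared. Fabp4 (-0.72 ± 1.07 (SE, adjusted p = 0.77)), Cldn5 (-0.80 ± 0.55 (SE, adjusted p = 0.46)), Cd34 (0.80 ± 0.35 (SE, adjusted p = 0.2)), Pecam1 (0.52 ± 0.20 (SE, adjusted p = 0.15)), Aqp1 (-0.45 ± 0.35 (SE, adjusted p = 0.53)), Vwf (0.24 ± 0.28 (SE, adjusted p = 0.71)) and Cdh5 (-0.00 ± 0.22 (SE, adjusted p = 1)) did not pass, and the wide errors of Fabp4 and Cldn5 leave room for a difference.

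In the heart region, Aqp1 was the single gene of the 10 called between E10.5 and E11.5, rising by 1.21 ± 0.25 (SE, adjusted p = 0.0092), beside 1.16% of all probe sets. The call was lost without E10.5 array 3 (1.16, adjusted p = 0.07) or E11.5 array 2 (1.12, adjusted p = 0.088). Fabp4 went from 71.9, 75.3 and 112 to 164, 231 and 172, a difference of 1.0 ± 0.76 (SE, adjusted p = 0.66). Cd34 (0.60 ± 0.24 (SE, adjusted p = 0.28)), Cldn5 (0.51 ± 0.39 (SE, adjusted p = 0.67)) and Tmem100 (0.46 ± 0.23 (SE, adjusted p = 0.41)) did not pass the test. Nor did Pecam1 (0.34 ± 0.14 (SE, adjusted p = 0.31)) and Cdh5 (0.13 ± 0.15 (SE, adjusted p = 0.82)). In each of these genes, and in Fabp4, every E11.5 array lay above every E10.5 array. How many of all probe sets separate in that way was not counted. At an unadjusted p below 0.05 there were 4 of the 10, and 4 were called when only these arrays were fitted (Aqp1, Cd34, Fabp4 and Pecam1). The 1.16% belongs to the main fit at the adjusted threshold, and the shares of all probe sets beside these other counts are not given. Plvap was 1986, 1960.4 and 2031 and 1931, 1725.5 and 2101, and Vwf 787.5, 815 and 709.8 and 832, 780.5 and 904. The tissue of these groups holds other organs besides the heart, so no test was made between them and the chambers.

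Where a gene had several probe sets, their mean differences between chambers shared a sign. Of the other Fabp4 probe sets, those with 28 and 15 arrays above the filter value gave -1.45 and -0.73, and the other Cdh5 probe set gave -0.48, all called. The dimmest Fabp4 probe set (-1.52) exceeded that value on 10 arrays, 8 of them ventricular, and the other Tmem100 probe set (0.33) on 7, 5 of them atrial. Both passed the filter mainly through the chamber where they were high, and so did the Fabp4 probe set with 15 such arrays. The values of these probe sets are thus no separate support for a direction. Single ages often parted. The other Cdh5 probe set was not called at E12.5 (adjusted p = 0.059) or E18.5 (0.13), and the other Tmem100 probe set was not called at E16.5 (0.054), where its groups overlapped. At E18.5 the Fabp4 probe set with 15 such arrays was called (-0.95, adjusted p = 0.014) where the brightest was not, and at E16.5 the one with 28 was not called (0.091). The Tmem100 probe sets also parted on the ventricular change of Tmem100, which was -0.16 ± 0.23 (SE, adjusted p = 0.65) for the brighter probe set and -0.66 for the other (adjusted p = 0.045).

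Likeness among the 10 genes is given as correlations of group means over the 10 chamber groups, which share arrays, scaling and tissue composition. Fabp4 and Cldn5 had r = 0.95, Fabp4 and Cd34 0.94, and Cd34 and Cdh5 0.87. Eng and Tmem100 had 0.93. Pecam1 was correlated with Eng (0.85), Aqp1 (0.80), Cd34 (0.75), Tmem100 (0.73) and Fabp4 (0.66). Plvap and Vwf had 0.69 with each other and 0.36 and 0.42 with Eng. Plvap ran against Cldn5 (-0.89), Fabp4 (-0.78) and Cdh5 (-0.75). Within groups, over deviations of the 36 arrays from their group means, Aqp1 and Cd34 (0.76), Eng and Pecam1 (0.75) and Pecam1 and Cdh5 (0.70) varied together most, and Cldn5 and Vwf ran opposite (-0.58). The genes whose group means were most like those of a member, among the 12983 tested, were Trim63, Adgre5 and Ntn4 for Fabp4 (r = 0.995, 0.990 and 0.985), and Vwa1, Sox17 and Vsir for Cldn5 (0.975, 0.967 and 0.965). For Plvap they were Npr3, Dpp4 and Tek (0.986, 0.984 and 0.982), and for Vwf Osbpl2, Stat5b and Rgs6 (0.974, 0.973 and 0.959). For Tmem100 they were Ocln, Dennd5b and Agpat5 (0.980, 0.965 and 0.964), and for Pecam1 Ptpn3, Gimap8 and Slc39a13 (0.983, 0.968 and 0.957).

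Genes of the same pathways, other than the 10, were read from lists, against the same percentages of all probe sets. Of 11 genes of the BMP9 and ALK1 pathway to which Eng and Tmem100 belong, 9 were higher in atria over the ages and 1 lower, with a median of 0.27. Bmp10, a ligand of ALK1 made by heart muscle, was higher by 0.77 ± 0.17 (SE, adjusted p = 5e-04), the inhibitory Smad6 by 0.52 ± 0.06 (SE, adjusted p = 3.7e-08) and the target Id2 by 0.50 ± 0.07 (SE, adjusted p = 1e-06). The receptor gene itself, Acvrl1, was lower in atria, -0.50 ± 0.12 (SE, adjusted p = 0.00093). Bmp10 rose in atria from E12.5 to E18.5 by 1.86 ± 0.38 (SE, adjusted p = 0.00065), and its change differed between the chambers by 2.32 ± 0.54 (SE, adjusted p = 0.012), as did those of Id2 (0.93 ± 0.22 (SE, adjusted p = 0.015)) and Smad5 (0.64 ± 0.15 (SE, adjusted p = 0.012)). These 3 were the calls of the list in that comparison, and 1 was left when arrays were centred on their median or without E12.5 atrium array 1.

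Of 12 endocardial genes, 7 were higher in atria and 1 lower, with a median of 0.48. The Notch ligand Jag1 was higher by 1.61 ± 0.06 (SE, adjusted p = 5.6e-18), its target Hey1 by 1.10 ± 0.07 (SE, adjusted p = 2.9e-13) and the natriuretic peptide receptor Npr3 by 0.84 ± 0.07 (SE, adjusted p = 3.7e-11), while Hey2, which compact ventricular muscle also carries, was lower, at -2.87 ± 0.25 (SE, adjusted p = 1.2e-10). Whether muscle or endocardium gave the signal was not tested for Hey1, Hey2 or any other gene of the list. In the ventricles 6 of the 12 fell and 1 rose, and Npr3 fell by 1.19 ± 0.15 (SE, adjusted p = 1.4e-06), Tgfbi fell by 1.17 ± 0.29 (SE, adjusted p = 0.0026), and the cushion matrix gene Hapln1 fell by 3.30 ± 0.53 (SE, adjusted p = 2.6e-05). In the atria 4 rose and 3 fell; the 4 became 2 without E12.5 atrium array 1 and with median centring. The change differed between chambers for 5 upwards and 1 downwards, with Tgfbi at 2.65 ± 0.41 (SE, adjusted p = 0.00027) and Npr3 at 1.5 ± 0.21 (SE, adjusted p = 0.00012). The 5 became 3 without E12.5 atrium array 1 or with median centring and 2 with only the arrays compared.

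Of 12 genes of fatty acid handling in capillaries, 0 were called higher in atria by limma (1 at an unadjusted p below 0.05) and 7 were lower, with a median of -0.25. Rbp7, a retinol binding protein of capillary endothelium, was at -2.25 ± 0.30 (SE, adjusted p = 3.5e-07), the transcription factor Meox2 at -1.09 ± 0.21 (SE, adjusted p = 9.8e-05), and Gpihbp1, which carries lipoprotein lipase across endothelium, at -0.93 ± 0.15 (SE, adjusted p = 9.8e-06). Fabp3, mainly a heart muscle gene, was at -0.94 ± 0.10 (SE, adjusted p = 1e-08). In ventricles 9 of 12 rose, with a median of 0.88, and in atria 7, with a median of 0.73, and 0 fell in either, also at an unadjusted p below 0.05. Gpihbp1 rose by 2.66 ± 0.34 (SE, adjusted p = 1.3e-06) in ventricles and by 1.44 ± 0.34 (SE, adjusted p = 0.0024) in atria, and the fatty acid transporter Cd36 by 2.17 ± 0.24 (SE, adjusted p = 1.9e-07) and 1.09 ± 0.24 (SE, adjusted p = 0.0013). The chambers' changes differed for 0 of the 12 by limma at the adjusted threshold and for 4 at an unadjusted p below 0.05. At E18.5 6 of the 12 were lower in atria, 3 without atrium array 2 or without ventricle array 3.

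**Figure D4:**
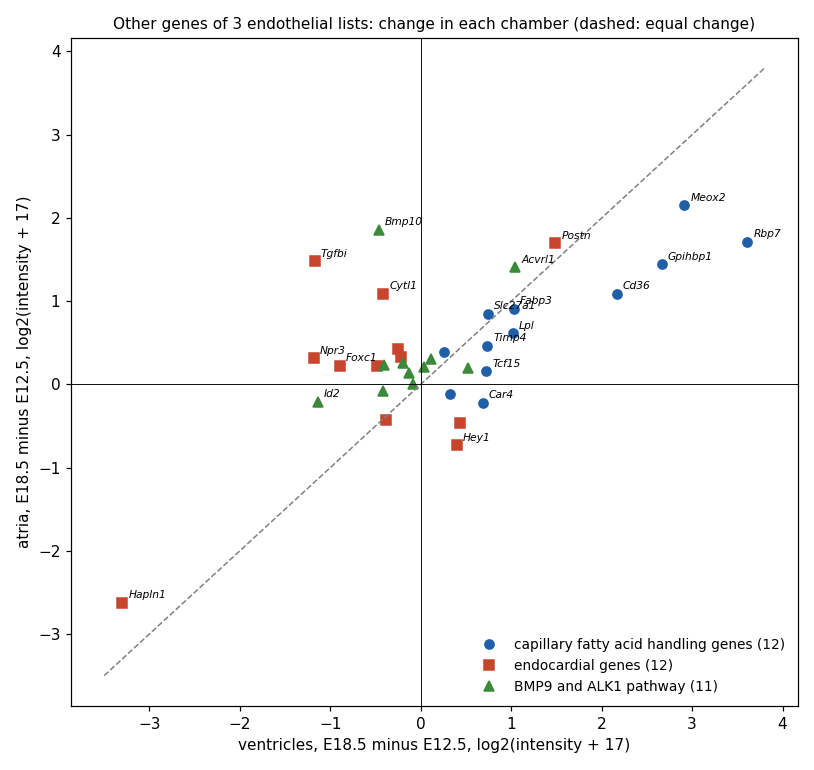
Change from E12.5 to E18.5 in ventricles (x axis) and atria (y axis), in log2(intensity + 17), for 12 capillary fatty acid genes (circles), 12 endocardial genes (squares) and 11 BMP9 and ALK1 pathway genes (triangles), with genes beyond 0.6 on either axis named and the dashed line marking an equal change. Rbp7, Meox2, Gpihbp1 and Cd36 lie far to the right, and Tgfbi and Bmp10 lie at the upper left.

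Of 19 junction and surface genes of endothelium, 6 were higher in atria and 8 lower in the mean over the ages. The balance moved with age: at E12.5 1 was higher and 7 were lower, beside 4.4% and 5.27% of all probe sets. At E18.5 6 were higher and 2 lower, beside 11% and 8.53%. Those 6 became 3 without E18.5 atrium array 2. Of the 10 general endothelial markers, Pecam1 and Cdh5 among them, 0 were higher by limma (0 at an unadjusted p below 0.05) and 4 lower at E12.5, and 3 were higher and 2 lower at E18.5. In the junction list Procr, a receptor for protein C, was higher over the ages by 1.38 ± 0.13 (SE, adjusted p = 7.9e-10) and Robo4 lower, at -0.75 ± 0.06 (SE, adjusted p = 3.5e-11). In the atria 14 of the 19 rose from E12.5 to E18.5, a count that became 9 without E12.5 atrium array 1 and 6 with only the arrays compared. In the ventricles 8 rose and 3 fell; the 8 became 5 without E18.5 ventricle array 1, and the 3 became 1 without E18.5 ventricle array 2 or with median centring. Of 18 endothelial transcription factors, 6 were higher in atria (Foxc2, 0.98 ± 0.08 (SE, adjusted p = 9.6e-11)) and 6 lower, among them Sox17 (-1.43 ± 0.21 (SE, adjusted p = 1.8e-06)) and Sox18 (-0.92 ± 0.12 (SE, adjusted p = 1.6e-07)). Sox17 rose in ventricles by 1.73 ± 0.47 (SE, adjusted p = 0.0058). Because it was picked above for likeness to Cldn5 over the same groups, this rise is no separate support for that likeness. Of 13 VEGF and angiopoietin genes, 4 were higher and 7 lower: Angpt1, a ligand of the receptor Tek, was higher by 1.97 ± 0.13 (SE, adjusted p = 4.7e-13), and Pdgfb, which endothelium secretes to recruit pericytes, lower, at -1.11 ± 0.12 (SE, adjusted p = 2.1e-08). The 4 became 2 under the strict filter, which tested 11 of these genes.

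Of 14 coronary arterial genes, 5 were higher in atria and 6 lower. The gap junction gene Gja5, which atrial muscle carries as well, was higher by 1.56 ± 0.19 (SE, adjusted p = 9.2e-08), and the chemokine receptor Cxcr4 lower, at -1.23 ± 0.18 (SE, adjusted p = 1.4e-06). In the ventricles 5 rose and 5 fell, a balance that single arrays moved: the 5 that rose became 2 without E12.5 ventricle array 3 or E18.5 ventricle array 2 or 3, and the 5 that fell became 2 without E12.5 ventricle array 1. Of 10 venous and lymphatic genes, 4 were higher and 3 lower; the venous regulator Nr2f2, also present in atrial muscle, was higher by 1.19 ± 0.07 (SE, adjusted p = 2.9e-14) and the lymphatic and macrophage receptor Lyve1 by 0.93 ± 0.12 (SE, adjusted p = 1.5e-07). Of 6 caveola and vesicle genes, 2 were higher and 2 lower, with Cav1 at 0.67 ± 0.13 (SE, adjusted p = 1e-04). Cav1 rose in ventricles by 2.12 ± 0.29 (SE, adjusted p = 3.5e-06), where Plvap fell, and 5 of the 6 rose in each chamber.

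Markers of other cells were read in the mean over the ages, where 20.9% of all probe sets were called higher in atria and 21.5% lower. Red-cell genes were higher in atria for 4 of 4, with a median of 1.3 and a summed level of 3344 to 43540 in the atrial groups against 1247 to 30600 in the ventricular groups. Epicardial genes were higher in atria for 5 of 6 and macrophage genes for 4 of 7. Of 5 lung genes tested, 2 were higher, and the summed level of the 6 measured was 358 to 15970 in atrial groups and 282 to 763 in ventricular groups. Of 5 liver genes 2 were higher, and of 6 heart muscle genes 1 was higher and 2 lower. Of the 10 general endothelial markers 3 were higher and 4 lower, with a median of -0.07, and their summed level was 11180 to 21670 in the atrial groups and 16740 to 19670 in the ventricular groups. The part of these cells in the values of the 10 genes was not tested.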

How the data were processed

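The files hold intensities as deposited, linear in scale, with 45101 probe sets on each of 36 arrays. The sources used here do not give how the authors derived or scaled these intensities. The 2% trimmed mean was 500 on every array, and this scaling was kept. Leaving out 64 controls gave 45037 probe sets, of which 34945 carried 1 gene symbol in the platform annotation, 932 several and 9160 none. A probe set entered the fit where at least 3 arrays exceeded 171.8, the median of all values, which gave 27256 probe sets and 12983 genes. With 3 arrays a group, their number limits the precision.

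The group means of log2(intensity + 17) were fitted in limma 3.58.1 (R 4.3.3), with an intensity trend, 24 residual and 5.68 prior degrees of freedom. Tests were two-sided, with Benjamini-Hochberg adjustment over all tested probe sets within each of 10 comparisons. The scripts were tested on simulated data. The replicate numbers do not pair the samples: deviations of same-numbered arrays of an age correlated between -0.335 and 0.159, and 1 of 15 correlations was over 0.1.

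The 10 genes, the lists and the comparisons were chosen with earlier results of these data known. Beyond the 10, the rule allowed up to 4 called genes of largest size for a list and comparison, and the 3 genes most correlated with a member over the 10 chamber groups. Marker genes were given where a result touched them. The alternatives changed the scaling (quantile normalization, median centring), the pseudocount (1 or 68), the filter (none, or the strict one at 583.3, the 75th percentile), the arrays in the fit (only those compared, or each left out in turn), the intensity trend (none), the weights of arrays, the block (replicate number) and the summary of a gene (the mean over its probe sets). Added after seeing the data were fits without the lung-high or liver-high arrays, the mean without E14.5, the list counts under each alternative and the ratio to Pecam1 and Cdh5.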

Additional observations from a re-analysis of the deposited data

Results flagged for a closer look

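Between E12.5 and E18.5 atria and ventricles changed by different amounts, by the interaction term of the fit in limma, for 3 of the 10 genes. The atrial minus the ventricular change was 2.67 ± 0.32 (SE, adjusted p = 7.4e-06) for Tmem100, 1.44 ± 0.31 (SE, adjusted p = 0.0077) for Plvap and 1.31 ± 0.26 (SE, adjusted p = 0.0035) for Eng, on the log2(intensity + 17) scale. Outlying single values within a group were not searched for by Dixon's test, since each group had 3 arrays.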

How the results depend on the processing

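The 7 genes called in the mean over 5 ages stayed called when each of the 30 chamber arrays was left out in turn and under every other alternative, and no called difference of the 10 genes changed sign. The counts of the 10 genes called at single ages were less firm. At E12.5 the count of 4 became 2 with median centring and 1 with only the arrays compared, and ranged from 1 to 5 when 1 array was left out. At E13.5 the count of 3 became 5 with array weights, with only the arrays compared and with the replicate block. At E14.5 the count of 1 became 0 in limma with only the arrays compared, where 2 had an unadjusted p below 0.05, and ranged from 1 to 2 when 1 array was left out. The 3 chamber differences in change became 5 with array weights. In the heart region the count of 1 became 3 with array weights and 4 with only the arrays compared, and ranged from 0 to 1 when 1 array was left out. The replicate block, a paired fit in which the numbers are not known to pair the samples, also called Eng in the mean (adjusted p = 0.043) and lost Fabp4 at E16.5 (0.051); the check of the pairing is given with the processing. Over all probe sets, the 11570 called in the mean became 7319 of 13854 under the strict filter, and counts at E12.5 and for the chamber difference in change (2637 and 1030) became 279 and 407 with only the arrays compared, 6994 and 4733 with array weights, and 1730 and 425 with median centring. Median centring shifted the median of all probe sets by over 0.1 at E13.5 (from 0.036 to -0.098), at E16.5 (from -0.047 to 0.064) and for the difference in change (from 0.046 to -0.063). Eng in the mean was called under 7 of 14 other settings and without any of 9 of the 30 arrays. Low Cidec, Lep and Ucp1 signals have no order at this brightness. The cause of these shifts was not tested.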
